A study of Homo sapiens with 12 samples.

Results

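The MYCN locus was taken here as a window of 250 kb on chromosome 2, chr2:15880000-16130000 on hg19, around the protein-coding gene MYCN and the long noncoding genes MYCNOS and MYCNUT. Its members were all H3K27ac ChIP-seq peaks that share at least 1 bp with the window. These were 12 of 41082 peaks in cells transfected with the control siRNA (siNC) and 12 of 45586 peaks in cells transfected with siRNA against HSF1 (siHSF1). To these were added the CUT&Tag peaks of untreated cells in the same window, which were 2 of 7147 HSF1 peaks and 0 of 1299 H3K27ac peaks. Peaks were members by their position alone, whatever their height.

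All cells were Huh7, a human hepatocellular carcinoma line. The ChIP-seq groups were wild-type cells that received siNC and HSF1 knockdown cells that received siHSF1, both collected 48 h after Lipofectamine RNAiMAX transfection, and the CUT&Tag cells had no treatment. Each condition had 1 library, so none of the differences below has a replicate check and no test between conditions was made. The labels do not say which siRNA against HSF1 was used for ChIP-seq, and the HSF1 transcript level was not analysed here, so the knockdown was not checked.

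MYCN encodes a basic helix-loop-helix transcription factor of the MYC family that binds DNA as a dimer with MAX, and it is best known for its amplification in neuroblastoma. MYCNOS is transcribed from the opposite strand across the start of MYCN, and MYCNUT lies upstream in the same direction as MYCN. Acetylation of lysine 27 on histone H3 (H3K27ac) marks active promoters and enhancers, and long clusters of such enhancers are called super-enhancers (SEs). HSF1 is the master transcription factor of the heat shock response, which it drives by binding heat shock elements as a trimer.

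The ChIP-seq lists give positions on hg19 and the CUT&Tag lists on hg38. In this window an hg19 position was taken as the hg38 position plus 140122, an offset which puts the end of MYCN, at 15947007 on hg38, at 16087129 on hg19. No hg19 genome was used here, so whether the offset holds at every base of the window was not tested. Of the 22 HSF1 peaks between 10 and 22 Mb of chromosome 2, 5 lay within 1 kb of a siNC peak with the offset and 1 without it. Most of these peaks lie outside the window, so this count does not test the offset within it. GENCODE release 44 places MYCN (ENSG00000134323.13) at chr2:15940550-15947007 on the plus strand of hg38, MYCNOS (ENSG00000233718.9) at chr2:15918350-15942249 on the minus strand and MYCNUT (ENSG00000223850.1) at chr2:15920399-15936017 on the plus strand. Distances below are from the annotated MYCN start, at 16080672 on hg19 after the offset.

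The HSF1 peaks mark where HSF1 was called at this locus, so the bases around their summits are shown from the reference genome. Each run is the plus strand of hg38 from 100 bp before to 100 bp after the summit, and capitals mark matches to the motifs named below. The enhancer run is chr2:15766336-15766536, which is intergenic. The promoter run is chr2:15940305-15940505, which lies in an intron of MYCNOS and ends before the MYCN start.
HSF1 summit at the enhancer: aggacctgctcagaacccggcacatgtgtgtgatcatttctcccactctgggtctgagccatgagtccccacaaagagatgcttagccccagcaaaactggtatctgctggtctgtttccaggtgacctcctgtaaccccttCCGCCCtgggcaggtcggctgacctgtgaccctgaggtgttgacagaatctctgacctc
HSF1 summit at the promoter: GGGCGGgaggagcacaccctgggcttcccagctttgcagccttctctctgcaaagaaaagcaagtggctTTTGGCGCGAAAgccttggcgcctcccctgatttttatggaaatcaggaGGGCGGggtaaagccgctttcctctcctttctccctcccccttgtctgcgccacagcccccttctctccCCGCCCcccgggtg

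The enhancer run held 1 GC box (GGGCGG, searched on both strands), 42 bp after the summit. The promoter run held 3 GC boxes, and 2 matches to an E2F site (TTTGGCGC or TTTCGCGC on either strand) that overlap each other and begin 31 and 27 bp before the summit. Neither run held a CCAAT box, the E-box CACGTG or a pair of inverted heat shock units, for which GAANNTTC and TTCNNGAA were searched. Among runs of the same length at all 7147 HSF1 summits, 48.2% held a GC box, 1.02% the E2F site, 30.7% the CCAAT box, 5.81% the E-box and 5.43% the heat shock pair. The motifs were chosen with the promoter sequence in view, and a match is a run of letters and not a site shown to be bound. The GC content was 56.2% at the enhancer and 61.7% at the promoter, beside a median of 63.2% over all summits.

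Both HSF1 peaks were of middling fold enrichment for their library. The pileup counts the extended tags that cover a summit. The fold enrichment divides it by the local background, after 1 is added to each. At the enhancer the HSF1 peak at chr2:15766303-15766790 on hg38 had a pileup of 12 and a fold enrichment of 6.91. At the promoter the HSF1 peak at chr2:15940018-15940559 on hg38 had a pileup of 17 and a fold enrichment of 6.92, with its summit 145 bp upstream of the MYCN start. These fold enrichments were above those of 51.6% and 51.8% of HSF1 peaks, and the median over the library was 6.85. By pileup, the enhancer peak stood above 41.6% of HSF1 peaks and the promoter peak above 71.2%.

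Both H3K27ac libraries placed acetylation of the locus in a cluster of peaks far upstream of MYCN and in a smaller group at the start and in the body of the gene. After duplicates were dropped, 9795121 tags were left for siNC and 10793650 for siHSF1. The caller estimated a fragment length of 297 bp for siNC and 175 bp for siHSF1. Each tag is extended to this length, so the same density of tags gives a higher pileup and a longer peak in the siNC list, by 0.76 on the log2 scale for the pileup. The median peak length was 575 bp in siNC and 334 bp in siHSF1, and the median fold enrichment was 5.12 and 5.43. The H3K27ac CUT&Tag library of untreated cells kept 896393 of 15737890 tags, held 1299 peaks in all and had no peak in the window. With so few tags and peaks, a missing peak in this library cannot show that acetylation was absent.

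The enhancer cluster carried the highest acetylation of the window in both conditions. It was described here by the interval chr2:15906400-15922600 on hg19, from 174 to 158 kb upstream of the MYCN start, which is intergenic. In siNC the highest peak, chr2:15919366-15925368, was 6003 bp long, with a pileup of 24 (exact 95% Poisson interval 15.4 to 35.7) and a fold enrichment of 12.03. Farther from the gene, the peak chr2:15914953-15919011 was 4059 bp long, with a pileup of 20 (12.2 to 30.9) and a fold enrichment of 9.78. These stood above 95.9% and 92.3% of the siNC list in fold enrichment. The intervals here and below cover counting error only.

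The other 3 siNC peaks of the enhancer interval were short and low. At chr2:15907921-15908367 the pileup was 7 and the fold enrichment 3.85. At chr2:15913008-15913540 the pileup was 8 and the fold enrichment 4.19, and at chr2:15913869-15914302 they were 9 and 4.81. None of these 3 shared a base with a siHSF1 peak, and the nearest siHSF1 peaks lay 1.47, 2.41 and 1.65 kb away.

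In siHSF1 cells the stretch of the long siNC peaks was called as 8 separate peaks. The distal of the long siNC peaks overlapped 4 siHSF1 peaks of 281 to 585 bp, with pileups of 13, 12, 13 and 11 and fold enrichments of 7.15, 7.65, 8.24 and 4.11. The last of these, chr2:15917943-15918260, had the highest local background of the siHSF1 peaks of the window, at 1.92 tags. The proximal long siNC peak overlapped another 4 siHSF1 peaks of 204 to 2180 bp, with pileups of 15, 15, 11 and 8 and fold enrichments of 8.17, 9.41, 6.12 and 4.59. Among shared regions with 1 siNC peak across the genome, 6.43% held 4 or more siHSF1 peaks. The siHSF1 peaks covered 38.4% of the bases of the distal siNC peak and 60.4% of those of the proximal peak.

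Per tag and per bp of fragment length, the heights of the enhancer summits did not differ beyond counting error between the lists. At the proximal peak the fold enrichment was 12.03 in siNC and 9.41 in siHSF1, a log2 ratio of -0.35, and the summits lay 142 bp apart. At the distal peak it was 9.78 and 8.24, a log2 ratio of -0.25, with summits 622 bp apart. Per tag of the library and per bp of fragment length, the log2 ratio of the pileups was -0.055 (exact conditional 95% interval -1.09 to 0.93) at the proximal peak and 0.0016 (-1.13 to 1.08) at the distal peak. Both intervals span 0, and a difference within them was not detectable at this depth. The log2 ratio of fold enrichment was lower than at the proximal peak in 22.4% of all shared regions, and lower than at the distal peak in 29.9%.

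**Figure D1:**
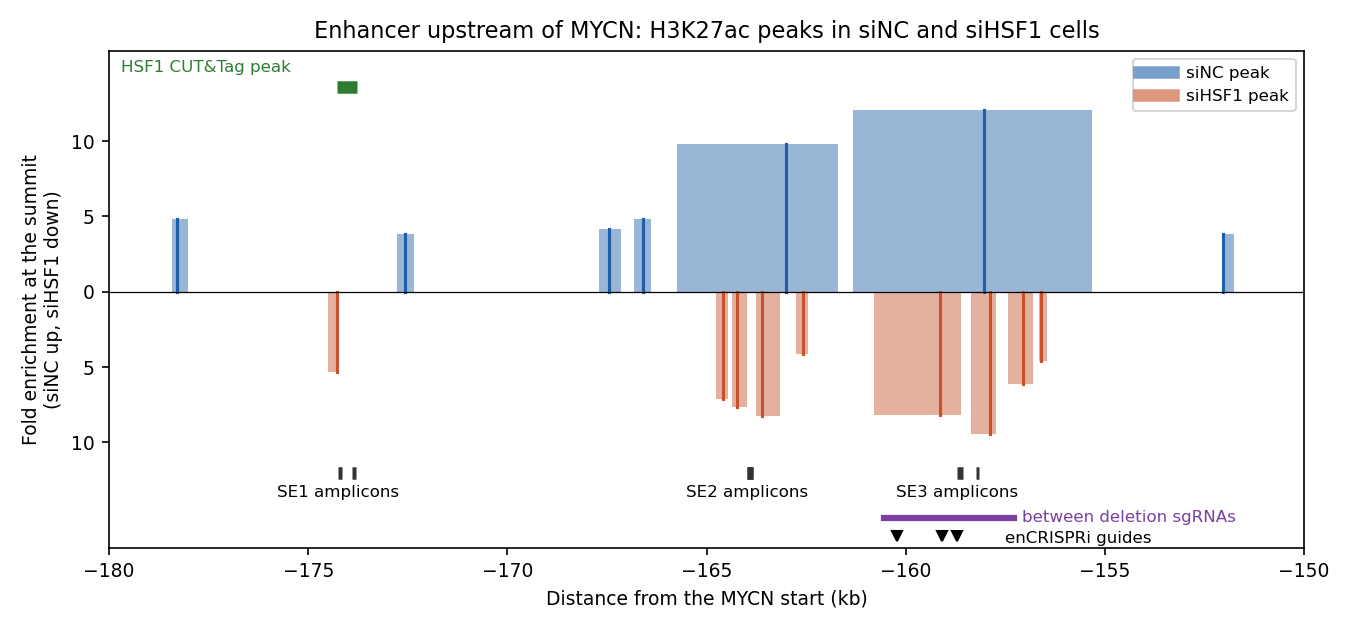
The enhancer upstream of MYCN, with the distance from the MYCN start in kb on the x axis and the fold enrichment at the summit of each peak on the y axis, siNC upward and siHSF1 downward; boxes span the peaks, vertical lines mark summits, and tracks show the HSF1 peak, the ChIP-qPCR amplicons, the stretch between the outermost deletion sgRNAs and the guides of the enCRISPRi repression system. Each of the long siNC peaks (4059 and 6003 bp) faces 4 shorter siHSF1 peaks, and the HSF1 peak lies at the distal end, outside both long peaks.

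In the lists used here, the called HSF1 peak of the enhancer and its highest acetylation did not lie at the same place. The HSF1 list came from 1 library of 2712212 tags, and HSF1 below the peak cutoff elsewhere in the enhancer was not tested. The HSF1 peak overlapped no siNC peak, and the nearest was 1.009 kb away. It shared 32 bp with the siHSF1 peak chr2:15906190-15906456, which had a pileup of 8 and a fold enrichment of 5.30 and overlapped no siNC peak. The HSF1 summit of untreated cells and the H3K27ac summit of siHSF1 cells lay 0.147 kb apart.

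The study measured this enhancer by ChIP-qPCR at sites it calls SE1, SE2 and SE3. The paper reports HSF1 CUT&Tag peaks across this enhancer, and HSF1 enrichment by ChIP-qPCR at each of these sites and the promoter. The primers show where these sites fall among the peaks. An amplicon of each site and of the promoter is printed as the plus strand of hg38, with the primer bases in capitals.
MYCNSE1_ChIPq2, chr2:15766322-15766431: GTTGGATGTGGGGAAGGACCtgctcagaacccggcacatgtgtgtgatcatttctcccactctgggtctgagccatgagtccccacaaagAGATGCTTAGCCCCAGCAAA
MYCNSE2_ChIPq1, chr2:15776599-15776739: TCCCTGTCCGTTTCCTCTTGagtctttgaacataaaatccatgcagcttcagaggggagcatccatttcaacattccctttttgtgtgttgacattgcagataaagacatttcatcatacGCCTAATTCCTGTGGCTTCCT
MYCNSE3_ChIPq1, chr2:15782339-15782429: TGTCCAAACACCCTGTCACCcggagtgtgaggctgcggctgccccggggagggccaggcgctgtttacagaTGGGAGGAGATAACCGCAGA
MYCNpro_ChIPq1, chr2:15939980-15940123: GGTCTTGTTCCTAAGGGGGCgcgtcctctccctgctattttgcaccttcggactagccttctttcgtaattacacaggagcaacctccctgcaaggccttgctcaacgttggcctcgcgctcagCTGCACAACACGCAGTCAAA

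The 8 amplicons fell in different surroundings in the siNC and siHSF1 lists. Both SE1 amplicons lay inside the HSF1 peak and outside every siNC peak, by 1.02 and 1.37 kb, and MYCNSE1_ChIPq2 shared 13 bp with a siHSF1 peak. The other sites of the enhancer lay outside the HSF1 peaks of the list used here, the SE2 amplicons by 9.81 kb and the SE3 amplicons by 15.5 and 15.1 kb. The ChIP-qPCR signal the paper reports at these sites was not analysed here. Both SE2 amplicons lay inside the distal long siNC peak, and in siHSF1 they fell in a gap between peaks, with 2 and 1 bp shared. Both SE3 amplicons lay inside the proximal long siNC peak. In siHSF1 all 91 bp of MYCNSE3_ChIPq1 and 86 of 145 bp of MYCNSE3_ChIPq2 were in a peak. Both promoter amplicons lay inside a siNC peak and 1.02 and 1.14 kb from the nearest siHSF1 peak. Of these, MYCNpro_ChIPq1 shared 106 of its 144 bp with the HSF1 peak and MYCNpro_ChIPq2 shared 0.

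The study also targeted the enhancer with sgRNAs. The paper describes the deletion as one of the whole SE, and reports lower MYCN mRNA after it and after enCRISPRi repression. Those RNA measurements were not analysed here. The outermost sites of the deletion design are printed to place it, as the guide in lower case with its PAM in capitals. Both lie on the minus strand of hg38, the former at chr2:15780024-15780043 and the latter at chr2:15783269-15783288.
MYCN-gRNA1: aacgattgtaaggcatgtggAGG
MYCN-gRNA4: tagaatgactgtccgggattAGG
All 7 sgRNA sites matched to the genome lay inside the proximal long siNC peak. In siHSF1, 6 of the 7 lay inside a peak, and MYCN-gRNA3 lay 53 bp outside. From MYCN-gRNA1 to MYCN-gRNA4 the stretch was 3.27 kb long, of which 100% was covered by the siNC peak and 82.5% by 3 siHSF1 peaks. It held the siNC summit of 12.03 and the siHSF1 summit of 9.41, and its nearer end lay 13.2 kb from the HSF1 peak.

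Peaks beside the enhancer interval were few. In siNC, 2 peaks lay on its distal side, at chr2:15889446-15889881 with a fold enrichment of 5.29 and at chr2:15902268-15902681 with 4.81. Another siNC peak, chr2:15928659-15928955, lay on its proximal side with a fold enrichment of 3.85, and was as short as the fragment length of 297 bp. None of these 3 had a siHSF1 peak. No siHSF1 peak lay on the distal side of the cluster.

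From the last peak of the enhancer side to the first of the promoter, no further peak was called over 150.6 kb in siNC and over 157.0 kb in siHSF1. LINC01804, ENSG00000237326, RNU5E-7P, RPLP1P5, ENSG00000238371 and RN7SL104P, the other annotated genes that reach into the window, had no peak within 1 kb of their starts. MYCNUT had no peak over its body in either list, and its start lay 19.1 kb from the nearest siNC peak and 20.7 kb from the nearest siHSF1 peak.

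At the MYCN promoter siNC had peaks on both sides of the gene start, and siHSF1 had peaks on the downstream side. In siNC, chr2:16079589-16080323 lay upstream of the start and over an exon of MYCNOS, with a pileup of 10 (4.80 to 18.4), a fold enrichment of 5.29 and its summit 401 bp upstream. No siHSF1 peak lay upstream of the MYCN start within 2 kb, and the nearest to this siNC peak began 0.939 kb away. Scaled by tags and fragment length, a factor of 0.649, the siNC pileup of 10 would be 6.49 tags in the siHSF1 library, where the lowest pileup called against the lowest background was 5. The scaled value carries the counting error of the siNC pileup, so it cannot show whether an unchanged peak would have been called.

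Downstream of the start both libraries had a peak in the introns that MYCN and MYCNOS share. In siNC, chr2:16081228-16081708 had a pileup of 9 and a fold enrichment of 3.41 over the highest local background of the siNC peaks of the window, 1.93 tags. In siHSF1, chr2:16081262-16081619 had a pileup of 11 and a fold enrichment of 6.12 over a background of 0.959 tags. The log2 ratio of fold enrichment was 0.84, above that of 95.4% of shared regions, and the log2 ratio of pileup per tag and bp was 0.91 (-0.50 to 2.36). This interval spans 0, so the higher siHSF1 value was within counting error. A siHSF1 peak with no siNC peak, chr2:16082202-16082400, lay over exons of MYCN and MYCNOS and covered the annotated start of MYCNOS, with a pileup of 7 (2.81 to 14.4) and a fold enrichment of 4.35. In siNC the nearest peak to the MYCNOS start was 663 bp away.

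The body of MYCN carried low peaks in both lists. In its intron the siNC peak chr2:16083246-16083792 (pileup 7, fold enrichment 3.72) overlapped the siHSF1 peak chr2:16083007-16083264 (pileup 7, fold enrichment 4.71), a log2 ratio of 0.34. Pileup per tag and bp gave 0.62 (-1.12 to 2.36). The siNC peak chr2:16084261-16084745 had a pileup of 11 and a fold enrichment of 5.59, and no siHSF1 peak overlapped it. In all, MYCN carried 3 peaks on its body in each list, and from the promoter to the end of the gene 2.25 kb was covered in siNC and 0.815 kb in siHSF1.

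**Figure D2:**
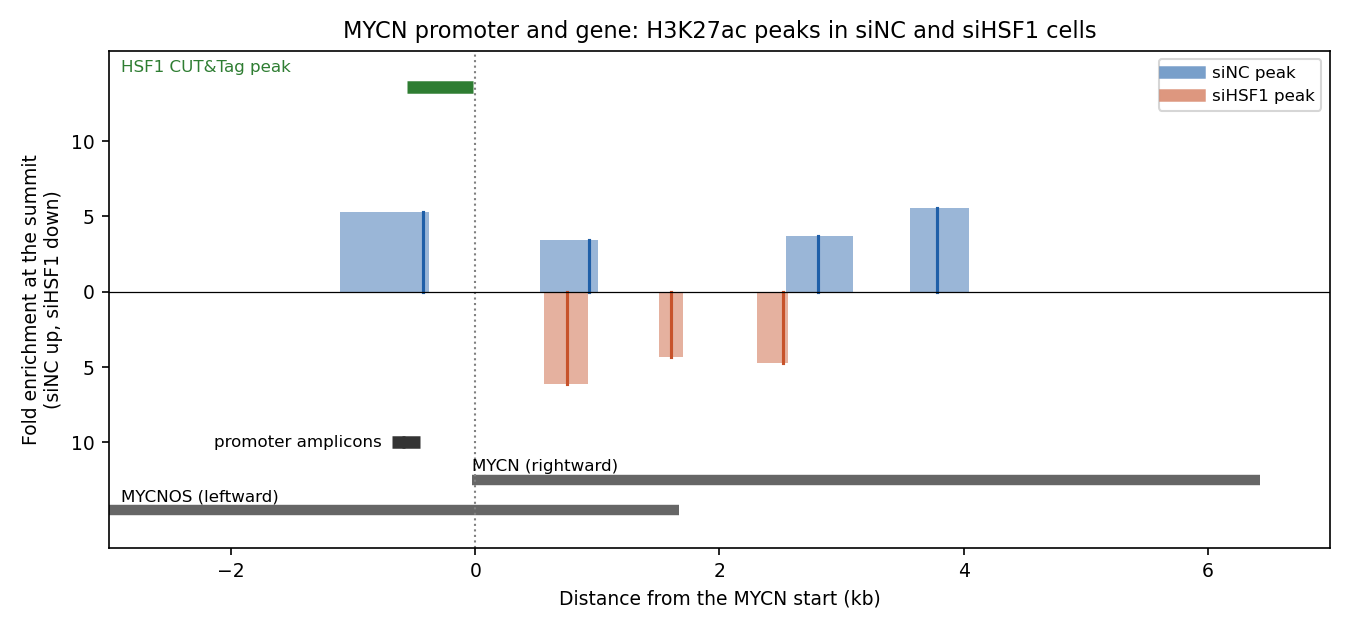
The MYCN promoter and gene, with the distance from the MYCN start in kb on the x axis and the fold enrichment at the summit of each peak on the y axis, siNC upward and siHSF1 downward, and the HSF1 peak, promoter amplicons, MYCN and MYCNOS on separate tracks. The siNC peak upstream of the start (fold enrichment 5.29) has no siHSF1 peak facing it, while at 0.775 kb past the start the siHSF1 peak (6.12) is higher than the siNC peak (3.41).

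The HSF1 summit at the promoter lay outside the acetylated stretches of both lists. In siNC the summit was 204 bp from the peak upstream and 701 bp from the peak downstream, and the HSF1 peak shared 184 bp with the former. In siHSF1 the nearest peak began 735 bp downstream of the summit and the HSF1 peak overlapped none. Thus 1 of the 2 HSF1 peaks of the window overlapped a siNC peak, that at the promoter, and 1 of the 2 overlapped a siHSF1 peak, that at the enhancer.

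Counted over the whole window, 8 of 12 siNC peaks had no overlapping siHSF1 peak (66.7%, 95% Wilson interval 39.1 to 86.2). Over the whole siNC list this share was 48.3%. The Wilson interval treats these peaks as independent, which neighbours in the same library may not be. It therefore cannot decide whether the window differs from the whole list. When a siHSF1 peak within 500 bp also counted as a partner, the window stayed at 66.7% and the whole list came to 35.4%. In the other direction, 2 of 12 siHSF1 peaks had no siNC peak (16.7%, 4.70 to 44.8), beside 25.4% of the whole siHSF1 list. The siNC peaks without a partner were the low ones, with pileups of 7 to 11. Scaled by tags and fragment length these came to 4.55 to 7.14 tags, and 2 of the 8 fell under 5. These scaled values leave out counting error. With a limit of 11 chosen after the values were seen, 8 of the 10 siNC peaks of the window at or under it had no siHSF1 peak, and so had 70.9% of such peaks genome-wide, beside 22% of peaks above it.

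Overlapping peaks of both lists merged into 14 regions in the window, of which 4 were shared, 8 were siNC only and 2 were siHSF1 only. Over all chromosomes used, 19826 of 51253 such regions were shared. Fold enrichment was lower in siHSF1 at 2 of the 4 shared regions, those of the enhancer, and higher at the 2 in MYCN, and it was lower at 50.4% of the 19826 shared regions genome-wide. The median log2 ratio was 0.045 in the window and -0.0051 over all shared regions. By fold enrichment none of the 4 was past 2-fold, and genome-wide 1.6% were at least 2-fold lower and 2.38% at least 2-fold higher in siHSF1. Without the added 1, the log2 ratios were 0.093 and -0.055 at the distal and proximal enhancer regions. In MYCN they were 1.30 near the start and 0.71 farther in. Pileup per tag and bp was lower at 1 of the 4, the proximal enhancer peak, beside 28.1% of all, with medians of 0.31 in the window and 0.24 over all.

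**Figure D3:**
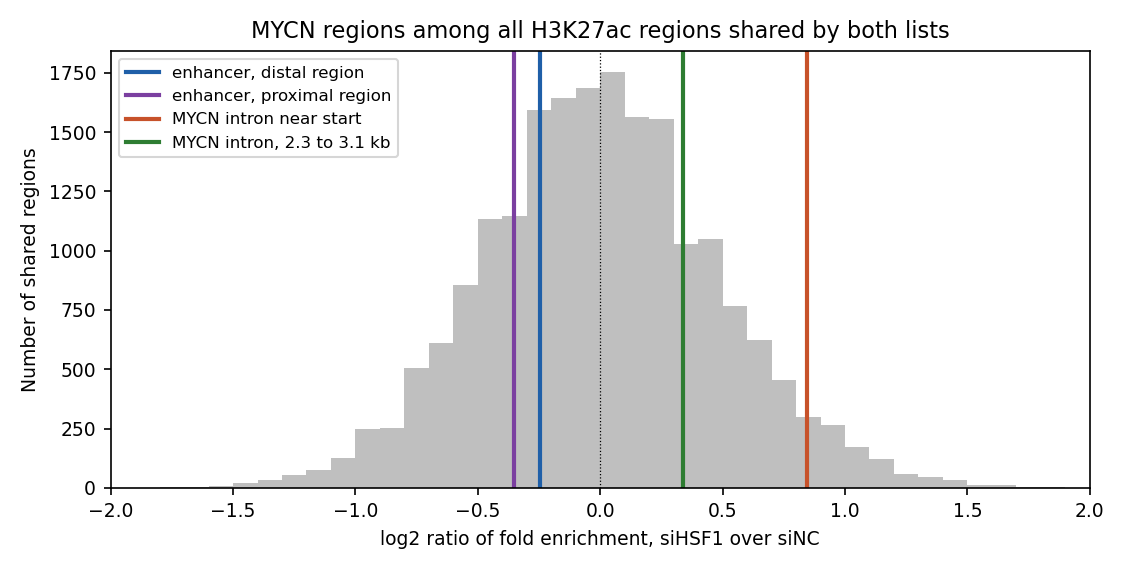
Log2 ratio of fold enrichment, siHSF1 over siNC, over the 19826 regions shared by both lists (histogram, number of regions on the y axis), with the 4 shared regions of the MYCN window marked by coloured lines. The enhancer regions, at -0.35 and -0.25, and the MYCN regions, at 0.34 and 0.84, lie on opposite sides of the genome-wide median of -0.0051.

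The length covered by peaks differed more than the height. In the window 14.9 kb was covered in siNC and 6.27 kb in siHSF1, so the siHSF1 length was 42.1% of the siNC length. Over all chromosomes it was 57.7%, with 42.0 Mb covered in siNC and 24.2 Mb in siHSF1. Within the enhancer interval and the siNC peaks that reach past it, 11.5 kb was covered in siNC and 5.45 kb in siHSF1.

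The enhancer was also described as a cluster of peaks, as for SE calling. Peaks at most 12.5 kb apart were stitched, and the signal of a cluster was found by multiplying the height of each peak above background by its length and adding these up, after the height was divided by the tags of the library in units of 1000000. This uses summit heights and not the reads, so it overstates long peaks. In siNC the cluster ran over 39.5 kb with 8 peaks and a signal of 23766, rank 682 of 14420 or 4.73% from the top. In siHSF1 it ran over 18.1 kb with 9 peaks and a signal of 6188, rank 1149 of 13377 or 8.59% from the top. The lists were called separately and differ in number, so these ranks are each within their own list. By the slope rule for SEs, the siNC cluster came to 99.1% of the cutoff, which 666 clusters passed. The paper used the ROSE program and places MYCN among genes whose SE was lost after HSF1 knockdown. The sum used here differs from that program, so this is not a check of the paper's call. The siHSF1 cluster came to 63.1% of its own cutoff.

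The sum moves with the length called and with the fragment length, so its parts are given. The log2 ratio of the sums was -1.94 at the enhancer and -1.36 over all peaks of the libraries. Divided also by fragment length, it was -1.18 at the enhancer and -0.60 over all peaks. The covered length was 12.6 kb in siNC and 5.45 kb in siHSF1 at the enhancer, a log2 ratio of -1.21, beside -0.79 over all peaks. The mean summit height above background, weighted by peak length, per tag and bp of fragment length had a log2 ratio of 0.033 at the enhancer and 0.19 over all peaks. As a share of each library's sum, the enhancer's log2 ratio was -0.58. Among the siNC clusters of ranks 1 to 1000, all of which overlap a siHSF1 cluster, the median log2 ratio was -1.40 and its 10th to 90th percentiles ran from -2.03 to -0.89. In 134 of these 1000 clusters (13.4%) the ratio was lower than at the MYCN enhancer. Among all 10548 siNC clusters that overlap a siHSF1 cluster, the median was -1.35, the 10th percentile was -2.59 and 24.8% were lower. The clusters at the MYCN promoter and gene lay near the middle of each list. Their ranks were 6578 of 14420 in siNC (45.6% from the top) and 7123 of 13377 in siHSF1 (53.2%). They came to 7.64% and 6.09% of the SE cutoffs.

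**Figure D4:**
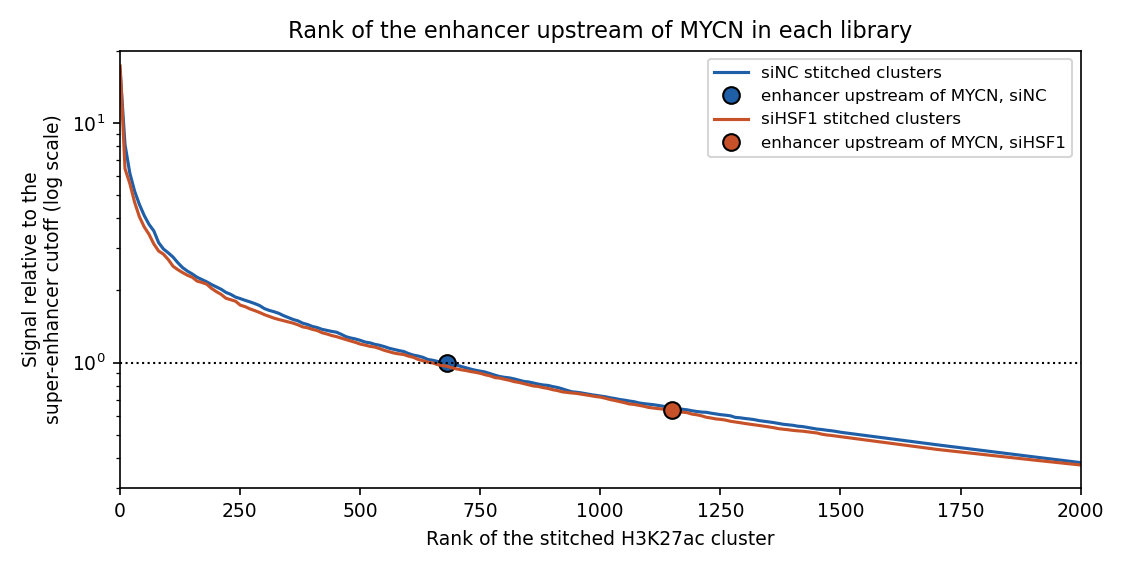
Stitched H3K27ac clusters of the siNC and siHSF1 libraries by rank (x axis), with the signal relative to each library's SE cutoff on a log-scaled y axis, the cutoff as a dotted line, and the clusters at the enhancer upstream of MYCN marked. The siNC cluster (rank 682) lies at 99.1% of its cutoff and the siHSF1 cluster (rank 1149) at 63.1%.

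MYCN acts in a network of MYC, MAX and their partners, of which MXD and MNT proteins compete with MYC proteins for MAX. An HSF1 peak lay within 1 kb of the start of 5 of the 13 genes of this network (MYCN, MAX, MXD3, MXD4 and MNT), beside 21.9% of all protein-coding genes. The fold enrichment was 6.92 at MYCN, 6.02 at MAX, 6.15 at MXD3, 7.79 at MXD4 and 4.66 at MNT. MYC, MYCL, MXD1, MXI1, MGA, MLX, MLXIP and MLXIPL had none. MYCN thus lay within the range of its partners. None of the 13 had an H3K27ac CUT&Tag peak, beside 2.75% of genes.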

How the data were processed

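Data were 4 peak lists from Huh7 cells, made by the authors with MACS2 from deduplicated tags, each library called by itself. The authors called ChIP-seq peaks with MACS 2.1.1.20160309 against the input of each condition at a q-value of 0.05, and those of CUT&Tag with MACS 2.1.4, with no control library and a p-value cutoff of 1e-05. The deposited pileup is a signal, in tags over the summit. The deposited fold enrichment is a ratio over the local background. The -log10 p-value and the adjusted -log10 q-value, also deposited, follow a Poisson model. Per the file headers, ChIP-seq tags were aligned with BWA to hg19, whereas the methods name Bowtie2 and hg38. RNA-seq samples were not analysed here. A list of hepatocyte markers is not reported here, so the cell type was not checked.

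Unplaced contigs and the mitochondrial genome were left out, and overlap meant 1 shared bp. Overlapping peaks of the ChIP-seq lists were merged into regions, and the tallest siNC and siHSF1 peaks of a region were compared. Background was recovered from pileup and fold enrichment. Primers and guides were matched to hg38. With 1 library per condition, values are described without tests. Items named were all peaks of the window, its annotated genes, and the amplicons and guide sites. The window, gene lists and measures were chosen with earlier results of these data known. Scripts used samtools 1.23.1, matplotlib 3.10.9, pysam 0.24.0, scipy 1.17.1, pandas 2.3.3 and numpy 2.4.6 under Python 3.11.15, and recovered 7 of 7 planted values when tested on simulated data.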

Additional observations from a re-analysis of the deposited data

How the results depend on the processing

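Of 27 alternatives to 7 results, 22 kept the direction and stayed within counting error or 1.5 times the reported value, and 5 did not. With a fold enrichment of at least 5, siNC kept 5 peaks and siHSF1 8, a ratio of 1.6 in place of 1. The median log2 ratio at shared regions was -0.45 with pileup divided by library tags, and -0.30 with a -log10 q-value of at least 5, which left the 2 enhancer regions. With pileup divided by library tags, the log2 ratio of the highest peaks within 2 kb of the MYCN start was -0.0025 in place of 0.21, which sets the siNC peak upstream of the start against the siHSF1 peak downstream of it. Per bp of fragment length as well, the enhancer's summed signal gave -1.18 in place of -1.94. The siNC cluster passed the SE cutoff with stitching at 5 kb (rank 649) and with fold enrichment times length (rank 542), and the siHSF1 cluster passed with neither. Leaving out a replicate was not possible with 1 library per condition. No paired analysis was possible because each condition had 1 library. Pileups of 7 to 24 tags limit what could be told apart, and the part of fragment length in the shorter siHSF1 peaks was not tested.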
